A study of Mus musculus with 6 samples.

Results

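The 10 genes described here are the endothelial adhesion genes Pecam1 and Vwf, the receptors Kdr, Flt1, Tek and Tie1, and the secreted ligands Vegfa, Vegfc, Angpt1 and Angpt2. They were taken by symbol from a table of 34745 genes, in which each symbol had 1 row. RNA was sequenced from the prostates of C57BL/6 mice, for which the labels name no engineered allele. In the T + E2 group (n = 3) pellets that slowly released testosterone and estradiol were implanted under the skin over 12 weeks and renewed every month, and in the CON group (n = 3) the same surgery was repeated without a pellet. The model serves the study of benign prostatic hyperplasia with an obstructed bladder outlet, and neither the lobes taken nor the age of the mice is given in the labels. No group received 1 hormone alone, so testosterone and estradiol cannot be told apart.

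Blood vessels are lined by endothelial cells, which are held together by adhesion molecules such as PECAM1 and store the clotting protein VWF. Vessel growth is driven by VEGF ligands, which bind the tyrosine kinase receptors KDR and FLT1, while the angiopoietins act through the receptor TEK, with TIE1 as its partner. ANGPT1 is the classical activating ligand of TEK and keeps vessels quiet, whereas ANGPT2 is released by endothelial cells and often opposes it. In the prostate, androgens are known to maintain both the epithelium and its blood supply.

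Of the 10 genes, Vwf passed the test, with expression 1.57 times as high in the T + E2 group. Angpt2 was 1.49 times as high with an adjusted p of 0.064, and Vegfc was 0.706 times as high with an adjusted p of 0.150, both from the quasi-likelihood test in edgeR, adjusted after Benjamini and Hochberg over all genes tested. The 3 T + E2 mice lay on one side of the 3 CON mice for these 3 genes, and the groups overlapped for the other 7. Pecam1, the 4 receptors, Vegfa and Angpt1 had fold changes between 1.02 and 1.33 with adjusted p-values of 0.197 to 0.960 from edgeR. No gene reached the absolute log2 fold change of 1 that defines a differentially expressed gene (DEG) here.

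Reads counted on genes totalled 14816146 to 16555549 per mouse. Values are CPM, the counts of a gene relative to all counts of the library with libraries scaled by the TMM method, and a positive log2 fold change means a higher level in the T + E2 group. Across all 15580 genes tested, 1620 (10.4%) were higher and 1441 (9.25%) lower at an adjusted p under 0.05, 1191 (7.64%) were DEGs, and in 6348 (40.7%) the groups did not overlap. Of the 10 vessel genes, 1 was higher, 0 were lower, 0 were DEGs, and 3 had groups that did not overlap. At an unadjusted p under 0.05, edgeR gave 2 of the 10 genes higher and 0 lower, against 2705 and 2667 of the 15580 genes tested. DESeq2 called 1 of the 10 higher and 0 lower, against 1716 and 1508 of the 15580 genes. It gave 0 of the 10 lower at an unadjusted p under 0.05. The median log2 fold change of the 10 genes was 0.14, against -0.002 for all genes tested. It was above 0 for 9 of the 10 genes, of which Kdr turned below 0 with total-count or upper-quartile scaling and Angpt1 with total-count scaling.

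**Figure D1:**
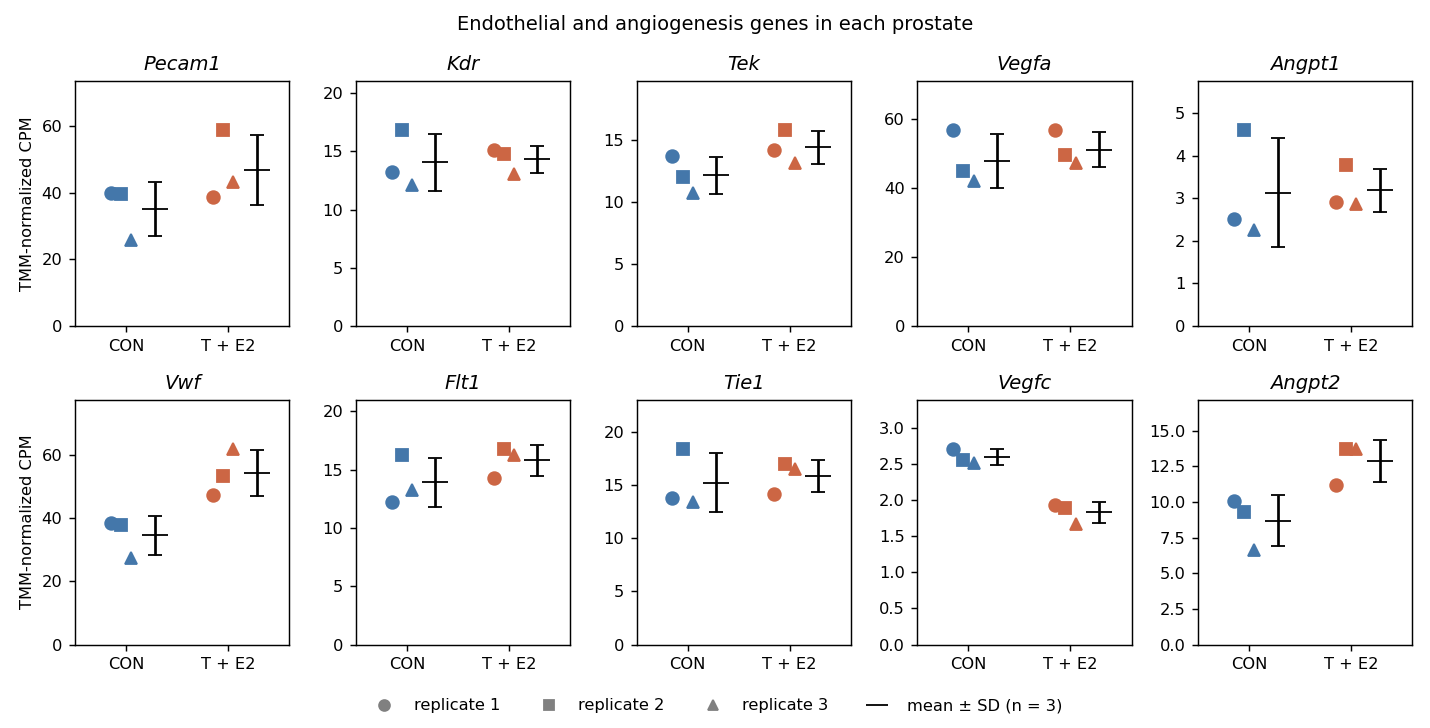
TMM-normalized CPM of each of the 10 genes in the 3 CON and 3 T + E2 mice, on axes that start at 0. Symbols give the replicate, and bars the mean ± SD (n = 3). The groups are apart for Vwf and Angpt2, with the T + E2 mice above, and for Vegfc, with the T + E2 mice below, and they overlap in the other 7 panels.

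The first pair are adhesion and storage proteins of the endothelial cell. Vwf (von Willebrand factor, ENSMUSG00000001930, chromosome 6 of GRCm38, 125546774 to 125686679, plus strand) encodes the protein that tethers platelets to injured vessel walls, and it is made by endothelial cells and by megakaryocytes, the precursors of platelets. Its level was 38.3, 38.0 and 27.4 CPM in the CON mice and 47.5, 53.5 and 62.1 CPM in the T + E2 mice. The highest CON mouse thus lay below the lowest T + E2 mouse, and CON mouse 3 stood lowest. The means were 34.6 ± 6.21 and 54.3 ± 7.34 CPM (SD, n = 3 in each group). The log2 fold change was 0.65 (standard error [SE] 0.16, 95% interval of the fold 1.22 to 2.02, adjusted p = 0.023 from edgeR).

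The call of Vwf did not hold everywhere. Its log2 fold change stayed between 0.42 and 0.74 in 15 alternative analyses, 9 of which kept an adjusted p under 0.05. Leaving out CON mouse 3 gave a log2 fold change of 0.51 and an adjusted p of 0.0528 in edgeR, leaving out T + E2 mouse 2 gave 0.67 and 0.0644, and leaving out T + E2 mouse 3 gave 0.55 and 0.0636. Over all genes, leaving out 1 mouse also cut the calls, from 1620 higher and 1441 lower to 1095 to 1474 and 834 to 1267. A call lost in this way, here and for the genes below, therefore need not be tied to the mouse left out. DESeq2 gave an adjusted p of 0.00155, whereas limma on log2(FPKM + 0.1) and log2(FPKM + 1) gave 0.0686 and 0.0653.

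Pecam1 (ENSMUSG00000020717, chromosome 11, 106654217 to 106750628, minus strand) encodes an adhesion molecule at the contacts between endothelial cells that is also carried by platelets and leukocytes. It had 39.9, 39.7 and 25.9 CPM in the CON mice and 38.7, 58.8 and 43.1 CPM in the T + E2 mice. The groups overlapped, since T + E2 mouse 1 lay below 2 of the CON mice. The log2 fold change was 0.42 (SE 0.21, 95% interval of the fold 0.958 to 1.86, adjusted p = 0.197 from edgeR). It was 0.22 without T + E2 mouse 2, in which Pecam1 was highest.

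Red cell and platelet genes are given beside these values, since blood cells carry some of the same transcripts. All 5 red cell genes tested were higher, 5 of 5 as DEGs, and their summed level was 53.9 to 66.2 CPM in the CON mice and 133.2 to 419.8 CPM in the T + E2 mice. Hba-a1, which encodes an alpha globin and was the most abundant of them, had 20.9, 15.5 and 16.5 CPM in the CON mice and 37.3, 119.0 and 40.5 CPM in the T + E2 mice. The beta globin genes Hbb-bt and Hbb-bs rose by 2.38 and 2.36 and the alpha globin genes Hba-a1 and Hba-a2 by 1.90 and 1.83 on the log2 scale, with adjusted p-values of 0.018 to 0.022 from edgeR, and reads could be split between such near-identical pairs. Without T + E2 mouse 2 the rise was 1.42 for Hbb-bs and 1.14 for Hba-a1, and all 4 globin genes lost their call without CON mouse 3, Hba-a1 and Hba-a2 also without CON mouse 2, and Hbb-bt without any 1 of the CON mice. T + E2 mouse 2 was the highest mouse for red cell genes and for Pecam1, and T + E2 mouse 3 for Vwf. Of 6 platelet genes, 2 had enough counts to test and neither passed. Pf4, a platelet chemokine and the most abundant of these, had 5.23, 4.40 and 4.28 CPM in the CON mice and 5.53, 10.8 and 4.34 CPM in the T + E2 mice. Summed platelet genes had 6.92 to 9.33 CPM in the CON mice and 7.33, 20.2 and 10.2 CPM in T + E2 mice 1, 2 and 3. Itga2b, the other platelet gene tested, had a fold of 1.05. The platelet receptor gene Gp9 had too few counts to test and is named here after its values were seen. It had 0, 2 and 0 counts in the CON mice and 0, 17 and 9 counts in the T + E2 mice. The part of blood in the values of Vwf and Pecam1 was not tested. Leaving out 1 mouse cannot test it, since the summed red cell level of every T + E2 mouse lay above every CON mouse.

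The receptors showed no change that passed the test. Kdr (ENSMUSG00000062960, chromosome 5, 75932827 to 75978458, minus strand) encodes VEGFR2, the main signalling receptor for VEGFA. It had 13.2, 16.8 and 12.1 CPM in the CON mice and 15.2, 14.7 and 13.0 CPM in the T + E2 mice. All 3 T + E2 values lay within the range of the CON mice. The log2 fold change was 0.02 (SE 0.15, 95% interval of the fold 0.798 to 1.30, adjusted p = 0.929 from edgeR).

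Flt1 (ENSMUSG00000029648, chromosome 5, 147561604 to 147726011, minus strand) encodes VEGFR1, which binds VEGFA tightly but signals weakly. It had 12.2, 16.2 and 13.3 CPM in the CON mice and 14.3, 16.8 and 16.2 CPM in the T + E2 mice, so the groups overlapped. The interval of its fold was 0.904 to 1.43 around 1.14, with an adjusted p of 0.398 from edgeR. Because gene counts sum all isoforms, the membrane-bound and the soluble form of this receptor were not separated.

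Tek (ENSMUSG00000006386, chromosome 4, 94739289 to 94874976, plus strand) encodes TIE2, the receptor of the angiopoietins. It had 13.6, 12.0 and 10.7 CPM in the CON mice and 14.2, 15.8 and 13.1 CPM in the T + E2 mice. Here 2 of the T + E2 mice lay above every CON mouse and the third lay below CON mouse 1. The fold was 1.19 (95% interval 0.949 to 1.48, adjusted p = 0.250 from edgeR).

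Tie1 (ENSMUSG00000033191, chromosome 4, 118471191 to 118490061, minus strand) encodes an orphan receptor that pairs with TIE2. It had 13.8, 18.5 and 13.5 CPM in the CON mice and 14.2, 17.0 and 16.6 CPM in the T + E2 mice. As for Kdr, the T + E2 mice fell inside the CON range, and the fold was 1.04 (95% interval 0.814 to 1.34, adjusted p = 0.814 from edgeR). CON mouse 2 was the highest CON mouse for Kdr, Flt1, Tie1 and Angpt1. It also stood apart in adipocyte genes, which summed to 660.7 CPM there, to 110.5 and 157.5 CPM in the other CON mice and to 69.7 to 182.1 CPM in the T + E2 mice. Their most abundant gene, Cfd (adipsin), had 56.9, 375.4 and 85.9 CPM in the CON mice and 100.4, 61.7 and 31.5 CPM in the T + E2 mice. Without CON mouse 2 the log2 fold changes were 0.17 for Kdr, 0.31 for Flt1, 0.22 for Tie1 and 0.41 for Angpt1, and none of these genes had an adjusted p under 0.05 in edgeR. The part of adipose tissue in these values was not tested further.

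**Figure D2:**
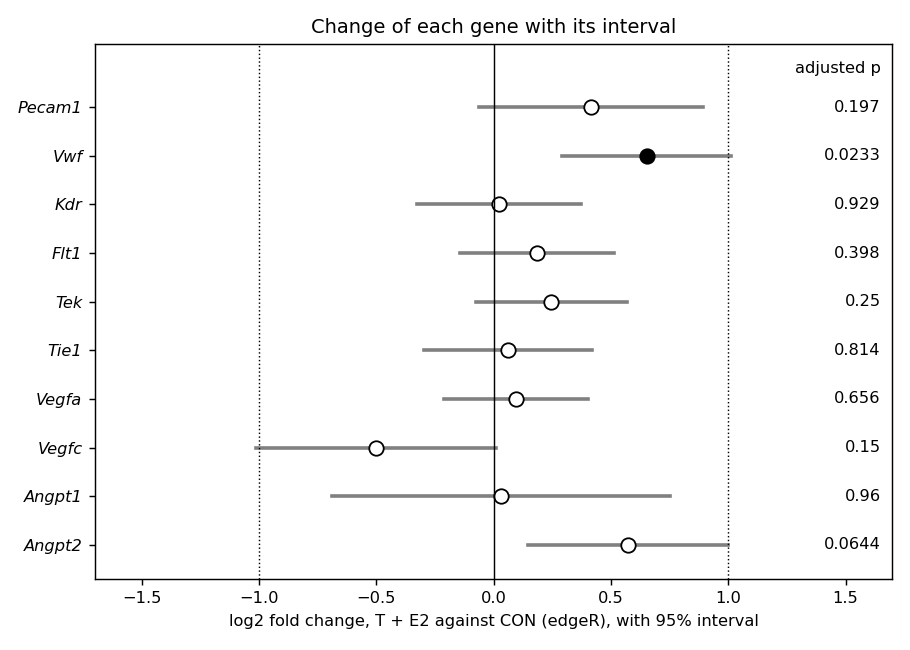
Log2 fold change of each gene (T + E2 against CON) from edgeR, as a point with its 95% interval, with the adjusted p at the right. The filled point is Vwf, the 1 gene with an adjusted p under 0.05, and dotted lines mark an absolute log2 fold change of 1. The intervals of the 4 receptors and of Vegfa lie between folds of 0.798 and 1.48.

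Promoters are shown because endothelial genes are known to be bound by ETS transcription factors, whose core motif is GGAA. RefSeq promoters on GRCm38.p6 were given for 6 of the 10 genes. For 3 receptors and for Vegfc, the gene whose level lay lower in each T + E2 mouse, the 250 bases before the RefSeq start are printed 5′ to 3′ in the direction of the gene, with GGAA or its reverse complement TTCC in capitals.
Kdr, chr5:75978456-75978705, minus strand: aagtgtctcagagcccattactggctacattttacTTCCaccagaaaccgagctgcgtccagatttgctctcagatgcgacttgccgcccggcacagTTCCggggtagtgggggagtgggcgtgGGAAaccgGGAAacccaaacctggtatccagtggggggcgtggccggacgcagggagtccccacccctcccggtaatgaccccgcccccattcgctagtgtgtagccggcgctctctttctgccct
Flt1, chr5:147726012-147726261, minus strand: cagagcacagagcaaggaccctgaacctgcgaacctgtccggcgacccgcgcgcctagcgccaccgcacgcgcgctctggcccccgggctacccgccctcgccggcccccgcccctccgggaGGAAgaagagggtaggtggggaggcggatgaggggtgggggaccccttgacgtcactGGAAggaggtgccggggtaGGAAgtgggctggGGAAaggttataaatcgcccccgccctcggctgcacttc
Tek, chr4:94739039-94739288, plus strand: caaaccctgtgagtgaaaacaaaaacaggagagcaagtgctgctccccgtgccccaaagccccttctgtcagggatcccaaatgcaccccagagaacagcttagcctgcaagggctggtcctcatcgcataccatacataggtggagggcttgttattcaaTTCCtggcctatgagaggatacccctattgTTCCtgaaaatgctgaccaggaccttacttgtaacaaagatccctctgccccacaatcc
Vegfc, chr8:54077282-54077531, plus strand: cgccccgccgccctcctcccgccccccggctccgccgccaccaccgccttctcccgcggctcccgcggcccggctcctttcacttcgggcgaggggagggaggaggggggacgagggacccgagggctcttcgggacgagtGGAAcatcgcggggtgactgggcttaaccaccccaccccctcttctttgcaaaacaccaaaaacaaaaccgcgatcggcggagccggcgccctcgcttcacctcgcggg
The windows of Kdr and Flt1 held 4 matches each, that of Tek 2 and that of Vegfc 1. At least 1 match was found in 93.4% of 32817 promoter windows of the same length, and the median window held 3, so these counts do not set the genes apart. The window of Tie1, which reaches into the gene as the table places it and is not printed, held 7 matches, a number reached by 3.82% of windows. The core of the hypoxia response element, searched here as ACGTG or CACGT, was found in 16.6% of all windows. Of the 2 windows given for Vegfa, the one before the start of the gene held 0 matches. The 1 match was in the other window (46025164 to 46025413), which lies within the gene. Bases further upstream and other forms of the element were not searched, so these counts do not show whether Vegfa has such an element. A match is a run of letters and not evidence of binding.

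Among the ligands, Vegfa (ENSMUSG00000023951, chromosome 17, 46016993 to 46032377, minus strand) encodes the main growth factor of the vessel wall. It had 56.8, 44.8 and 42.1 CPM in the CON mice and 56.7, 49.5 and 47.2 CPM in the T + E2 mice. In both groups mouse 1 was highest, and the groups overlapped. The change on the log2 scale was 0.09 (SE 0.13, 95% interval of the fold 0.862 to 1.32, adjusted p = 0.656 from edgeR). Gene counts do not separate the splice forms of Vegfa, which differ in how they bind the matrix.

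Vegfc (ENSMUSG00000031520, chromosome 8, 54077532 to 54186454, plus strand) encodes a ligand best known for lymphatic vessel growth through FLT4. It was the least counted of the 10 genes, with 41, 39 and 40 counts in the CON mice and 28, 31 and 25 counts in the T + E2 mice. Scaled to depth, these were 2.72, 2.56 and 2.51 CPM against 1.94, 1.89 and 1.67 CPM, so every T + E2 mouse lay below every CON mouse. On the log2 scale the change was -0.50 (SE 0.22, 95% interval of the fold 0.496 to 1.01, adjusted p = 0.150 from edgeR). In limma on log2(FPKM + 0.1) and log2(FPKM + 1) the adjusted p was 0.0395 and 0.0289, and over all 15 alternatives it ranged from 0.0289 to 0.396.

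Angpt2 (ENSMUSG00000031465, chromosome 8, 18690263 to 18741562, minus strand) had 10.1, 9.33 and 6.66 CPM in the CON mice and 11.2, 13.8 and 13.7 CPM in the T + E2 mice. The groups did not overlap, with means of 8.69 ± 1.79 and 12.9 ± 1.47 CPM (SD, n = 3 in each group). The log2 fold change was 0.57 (SE 0.18, 95% interval of the fold 1.11 to 2.00), with an unadjusted p of 0.015 and an adjusted p of 0.064 from edgeR. Its adjusted p was between 0.0554 and 0.165 in the 15 alternatives, so the gene was called in 0 of them. Angpt2 lies within Mcph1 on the opposite strand, with 0 shared exon bases.

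Angpt1 (ENSMUSG00000022309, chromosome 15, 42424727 to 42676977, minus strand) had 2.52, 4.60 and 2.26 CPM in the CON mice and 2.91, 3.78 and 2.87 CPM in the T + E2 mice. The CON mice spanned a wider range than the T + E2 mice, and the fold of 1.02 had an interval of 0.619 to 1.68, the widest of the 10 genes on the log scale (adjusted p = 0.960 from edgeR). The ratio of Angpt2 to Angpt1, each in FPKM and thus per gene length, was 4.47, 2.27 and 3.29 among CON mice, against 4.31, 4.07 and 5.35 among T + E2 mice. The groups overlapped, and the difference of the mean log2 ratio was 0.50, with a two-sided p of 0.3 in an exact permutation test over mice, which can give no p below 0.1 with 3 mice a group.

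**Figure D3:**
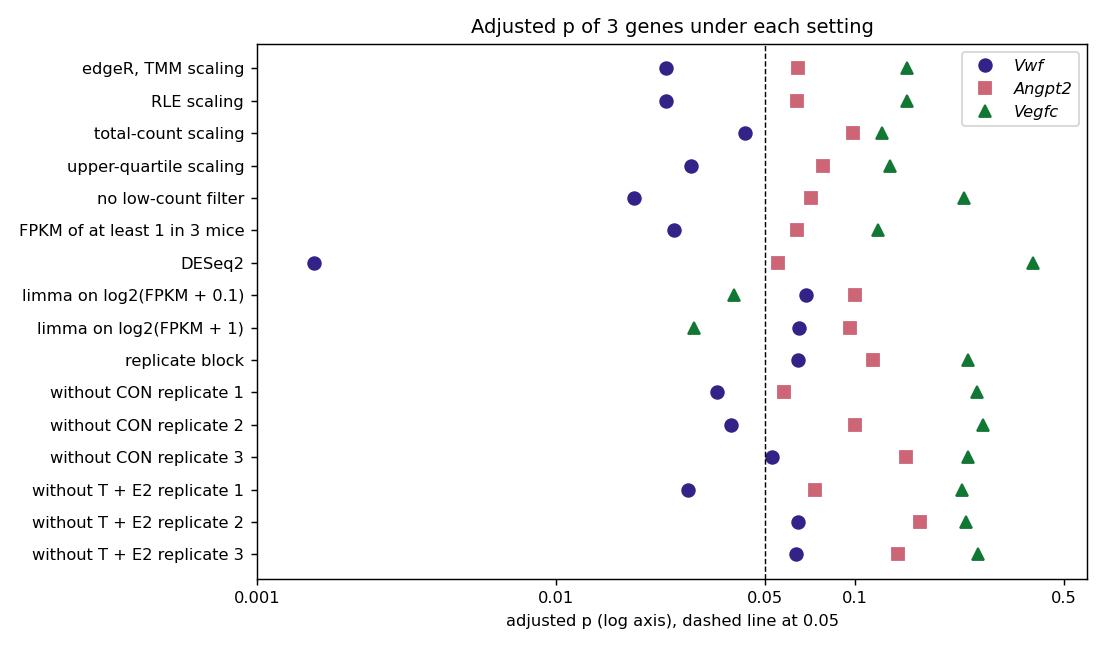
Adjusted p (log axis) of Vwf, Angpt2 and Vegfc in the edgeR test with TMM scaling and in 15 alternatives, with a dashed line at 0.05. Vwf lies left of the line in 9 of the 15 alternatives, Angpt2 in 0, and Vegfc in 2, both of them limma on log2 FPKM.

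Levels of different genes were compared on the FPKM scale, which divides by gene length. In the CON mice Vegfa had the highest mean, 4.67 FPKM, followed by Pecam1 with 3.98, Tie1 with 2.56, Angpt2 with 2.31, Vwf with 1.77, Tek with 1.62, Kdr with 1.48, Vegfc with 1.40, Flt1 with 0.978 and Angpt1 with 0.746 FPKM. Neighbours in this order overlapped between mice, except that Vegfc (1.33 to 1.47 FPKM) lay above Flt1 (0.863 to 1.16 FPKM) in every CON mouse. In the T + E2 mice Pecam1 led with 5.16 FPKM, followed by Vegfa with 4.85, Angpt2 with 3.35, Vwf with 2.71, Tie1 with 2.60, Tek with 1.87, Kdr with 1.46, Flt1 with 1.08, Vegfc with 0.959 and Angpt1 with 0.738 FPKM. There the neighbours that overlapped were Pecam1 with Vegfa, Angpt2 with Vwf, Vwf with Tie1, and Flt1 with Vegfc. The gene lengths implied by the FPKM values were 0.768 to 2.42 times the exon length in GENCODE M21, with the largest ratio for Vegfa. With GENCODE lengths, Vegfa ranked first in both groups, Tek moved from rank 6 to rank 4 in the CON group, and Vegfc and Flt1 came to lie close together there, at 1.07 and 1.04 CPM per kilobase, so the order of these genes depends on the lengths used.

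To set each gene against other endothelial transcripts of the same library, its CPM was divided by the summed CPM of 26 other pan-endothelial genes. This sum is a share of the library and not the endothelial content of the prostate. Which cells made each of the 10 transcripts was not tested, so the ratio is not a level per endothelial cell. Of those genes, 1 of 26 was higher and 0 were lower in edgeR, the median log2 fold change was 0.10, and the sum was 256.6 to 332.1 CPM in the CON mice and 297.7 to 353 CPM in the T + E2 mice. In bulk tissue, fewer cells of a type and less RNA per cell cannot be told apart. Cdh5, the cadherin that defines endothelial contacts, had 21.6 to 33.4 CPM in the 6 mice. Relative to the sum, Vwf was 1.47 times and Angpt2 1.39 times as high in the T + E2 group, and Vegfc 0.653 times as high, each with groups that did not overlap. The exact permutation p was 0.1 for these 3 genes, the smallest it can be, and 0.333 after Benjamini-Hochberg adjustment over the 10 genes. The other 7 ratios overlapped between groups, with exact permutation p-values of 0.2 to 1.

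The pan-endothelial gene that passed the test was Icam2, an adhesion molecule of endothelial cells that platelets and leukocytes also carry. It had 2.52, 3.48 and 1.82 CPM in the CON mice and 5.46, 7.37 and 6.27 CPM in the T + E2 mice, a log2 fold change of 1.29 (SE 0.27, adjusted p = 0.014 from edgeR). Every T + E2 mouse lay above every CON mouse, and the adjusted p was 0.0534 without T + E2 mouse 2. Leukocyte genes summed to 80.3 to 122.6 CPM in the CON mice and 117.3 to 155.1 CPM in the T + E2 mice, and 1 of 7 was higher. That gene was Itgam, an integrin of myeloid cells, with a log2 fold change of 1.67 (adjusted p = 0.005 from edgeR). The most abundant leukocyte gene, Csf1r, the receptor of a macrophage growth factor, had a log2 fold change of 0.23 (adjusted p = 0.360 from edgeR).

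The other ligands and receptors of the same families moved in more than one direction. Vegfb, which binds FLT1, had 35.8, 35.7 and 35.3 CPM in the CON mice and 22.8, 17.9 and 27.6 CPM in the T + E2 mice. It fell by 0.64 on the log2 scale (SE 0.15, adjusted p = 0.021 from edgeR), although the call was lost without T + E2 mouse 1 and without any 1 of the CON mice, with adjusted p-values up to 0.0596. Figf, the older symbol of Vegfd, and Pgf, the placental growth factor, did not pass, with log2 fold changes of 0.28 and 0.46. On the FPKM scale Vegfb made up 57.5 to 62.6% of the 5 VEGF ligands among CON mice, against 39.7 to 53.2% among T + E2 mice. The share of Vegfa was 15.01 to 18.9% among CON mice, against 18.9 to 23.5% among T + E2 mice, and the groups overlapped in that CON mouse 1 lay just above T + E2 mouse 3. Vegfc made up 4.96 to 5.14% and 3.68 to 4.79% of the ligands in the 2 groups. All these shares depend on the gene lengths behind the FPKM values. For Vegfa the implied length was 2.42 times the exon length in GENCODE M21, and shares with GENCODE lengths were not computed.

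Of the other VEGF receptors and co-receptors, Nrp1 was higher and Nrp2 lower. Nrp1, a co-receptor of KDR, had 28.8, 27.3 and 25.2 CPM in the CON mice and 37.8, 47.5 and 34.8 CPM in the T + E2 mice, with a log2 fold change of 0.56 (SE 0.13, adjusted p = 0.021 from edgeR). Leaving out CON mouse 2 or CON mouse 3 ended its call, with an adjusted p of up to 0.0747. Nrp2, a co-receptor of FLT4 that also binds semaphorins, had 47.3, 50.5 and 43.3 CPM in the CON mice and 28.8, 29.5 and 29.3 CPM in the T + E2 mice. It fell by 0.69 on the log2 scale (SE 0.09, adjusted p = 0.002 from edgeR) and was called in all 15 alternatives. Flt4 itself, which encodes VEGFR3, did not pass (log2 fold change -0.15, adjusted p = 0.483 from edgeR). On the FPKM scale Kdr made up 40.1 ± 1.96% of the 3 VEGF receptors in CON and 40.5 ± 3.28% in T + E2 mice (SD, n = 3 in each group).

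In the angiopoietin pathway, 1 of 4 further genes was higher and 0 were lower. That gene was Angpt4, the third TEK ligand of the mouse, with 6.49, 6.44 and 7.86 CPM in the CON mice and 23.2, 20.8 and 17.4 CPM in the T + E2 mice. The groups lay far apart, with a log2 fold change of 1.56 (SE 0.16, 95% interval of the fold 2.30 to 3.78, adjusted p = 0.000477 from edgeR), and all 15 alternatives called it. Angpt4 made up 49.9 ± 8.49% of angiopoietin FPKM among CON mice, against 67.8 ± 5.03% among T + E2 mice (SD, n = 3 in each group). The share of Angpt2 in the same sum was 37.9 ± 6.54% in the CON and 26.4 ± 4.56% in the T + E2 group (SD, n = 3 in each group), although its own FPKM was higher in the T + E2 group. The share of Angpt1 was 9.42 to 17.2% among CON mice, against 5.03 to 6.63% among T + E2 mice. Its own mean hardly differed, at 0.746 FPKM in the CON and 0.738 FPKM in the T + E2 group.

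**Figure D4:**
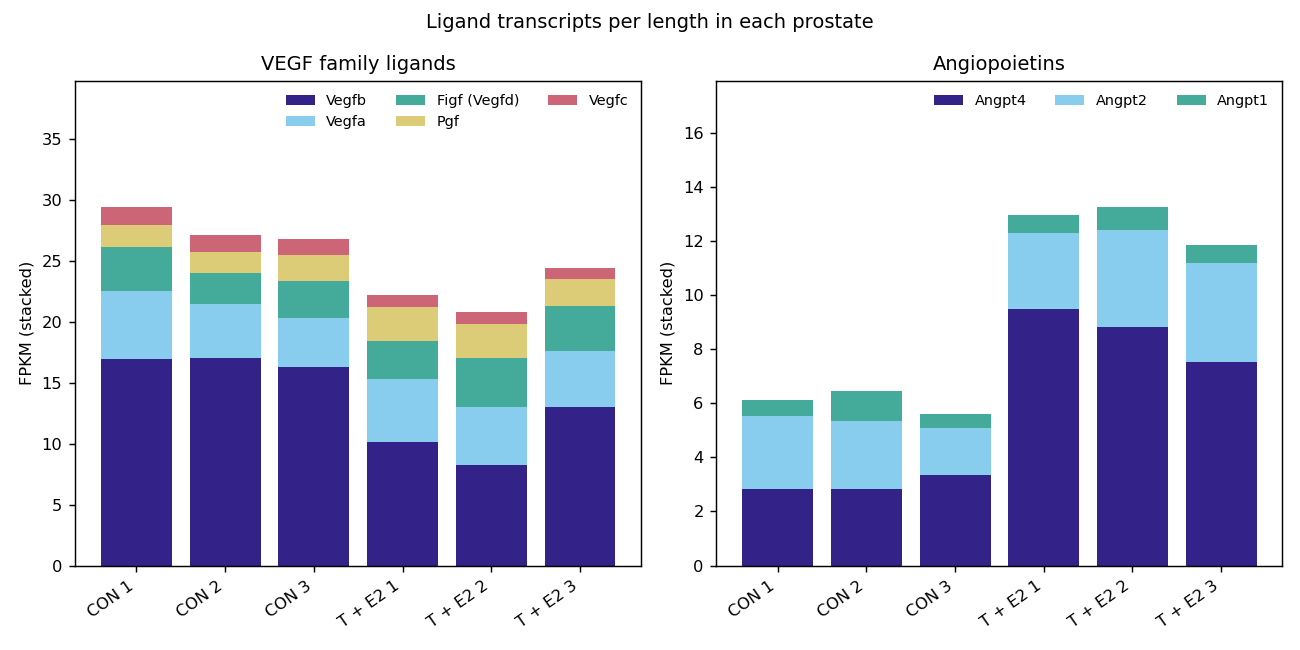
FPKM of the 5 VEGF family ligands (left) and the 3 angiopoietins (right), stacked, in each of the 6 mice, with axes from 0. Vegfb takes a smaller part of the left bars in the T + E2 mice (39.7 to 53.2%, against 57.5 to 62.6% in the CON mice), and Angpt4 a larger part of the right bars (63.5 to 73.3%, against 43.9 to 59.6%). The shares depend on the gene lengths behind the FPKM values.

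Of 18 other angiogenic signals 15 were tested, 0 were higher, 3 were lower and 12 did not pass, with a median log2 fold change of -0.24. Fold changes were above 0 for 6 of the 15, and the groups did not overlap for 10, with the T + E2 mice above in 3 and below in 7. Calcrl, the receptor for adrenomedullin, was among those above, with a log2 fold change of 0.53 (adjusted p = 0.052 from edgeR). Aplnr, the apelin receptor of sprouting endothelial cells, had 4.50, 4.21 and 2.70 CPM in the CON mice and 1.59, 1.22 and 0.73 CPM in the T + E2 mice, a fall by 1.68 on the log2 scale (SE 0.34, adjusted p = 0.012 from edgeR). Met, the receptor of hepatocyte growth factor that epithelial cells also carry, fell by 0.62 (adjusted p = 0.008 from edgeR). Plxnd1, a semaphorin receptor, fell by 0.60 (adjusted p = 0.039 from edgeR) and was called in 8 of 15 alternatives. Of 12 inhibitors of angiogenesis 11 were tested, 0 were higher and 1 lower. This was Thbs2, a matrix protein, which fell by 0.90 (adjusted p = 0.019 from edgeR) and was not called without T + E2 mouse 1 or T + E2 mouse 3.

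Markers of vessel types were next compared. Of 7 arterial genes, 0 were higher and 2 lower, and the median log2 fold change was 0.04. The groups did not overlap for 4 of them, with the T + E2 mice below in 2 and above in 2. The genes above were the Notch ligand Jag1, with a log2 fold change of 0.30 (adjusted p = 0.074 from edgeR), and the semaphorin Sema3g, with 0.40 (adjusted p = 0.105 from edgeR). Hey1, a target of Notch signalling, had 7.95, 8.35 and 12.8 CPM in the CON mice and 2.56, 2.07 and 2.94 CPM in the T + E2 mice, a fall by 1.94 on the log2 scale (SE 0.25, adjusted p = 0.002 from edgeR). Efnb2, the arterial ephrin, fell by 0.65 (adjusted p = 0.008 from edgeR). The remaining arterial genes, Gja4, Gja5 and Bmx, overlapped between groups and did not pass, with log2 fold changes of 0.04, 0.27 and -0.12. Of 5 venous genes 1 was higher and 1 lower. Ephb4, the receptor of Efnb2, fell by 0.48 (adjusted p = 0.014 from edgeR), and its call was lost without CON mouse 2. Lrg1, a glycoprotein of venous endothelium that leukocytes and other tissues also make, had 53.7, 32.2 and 28.04 CPM in the CON mice and 125, 154.5 and 136.8 CPM in the T + E2 mice, a log2 fold change of 1.87 (SE 0.23, adjusted p = 0.001 from edgeR). Hey1, Efnb2 and Lrg1 were called in all 15 alternatives. Which cells of the prostate made the arterial and venous transcripts was not tested.

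Of 6 lymphatic genes 5 were tested, 3 were higher and 0 lower, and Ccl21a had 0 counts in every mouse. Lyve1, a hyaluronan receptor of lymphatic vessels that some macrophages carry, had 19.0, 21.5 and 24.3 CPM in the CON mice and 43.6, 68.9 and 58.6 CPM in the T + E2 mice. Its log2 fold change was 1.40 (SE 0.18, adjusted p = 0.001 from edgeR), and all 15 alternatives called it. Mmrn1 rose by 0.82 (adjusted p = 0.017) and Pdpn by 0.61 (adjusted p = 0.006), both from edgeR, and Mmrn1 was called in 11 of 15 alternatives, losing its call without CON mouse 2, CON mouse 3 or T + E2 mouse 2 and with a block for the replicate number. Mmrn1 is also stored in platelets, and Pdpn is also carried by stromal and epithelial cells. Prox1 and Reln did not pass, with log2 fold changes of 0.24 and 0.23 (adjusted p = 0.522 and 0.222 from edgeR). Vegfc, the lymphatic growth factor among the 10 genes, did not pass either (log2 fold change -0.50, adjusted p = 0.150 from edgeR).

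Pericytes wrap the small vessels and share many genes with smooth muscle. Of 8 listed genes 7 were tested, 2 were higher and 3 lower. Cspg4 fell by 0.86, Pdgfrb by 0.73 and Mcam by 0.66, while Abcc9, a potassium channel subunit, rose by 0.89 and Notch3 by 0.61 on the log2 scale, with adjusted p-values of 0.002 to 0.014 from edgeR. Leaving out CON mouse 3 ended the call of Notch3. Of 6 smooth muscle genes 0 were higher and 2 lower, and Acta2, their most abundant gene, fell by 0.50 (adjusted p = 0.014 from edgeR), a call lost without T + E2 mouse 2. Des, the muscle intermediate filament gene, fell by 0.38 (adjusted p = 0.044 from edgeR) and was called in 8 of 15 alternatives. Their summed level was 4101 to 5043 CPM in the CON mice and 3591 to 3915 CPM in the T + E2 mice. The part of smooth muscle in the pericyte values was not tested.

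Vegfa is known as a target of the hypoxia response, so other genes of that response were read beside it. Of 14 listed genes 13 were tested, 5 were higher and 0 lower, and the median log2 fold change was 0.31. The groups did not overlap for 10 of them, with the T + E2 mice above in 8 and below in 2. The genes below were the stress response genes Ddit4, with a log2 fold change of -0.48 (adjusted p = 0.087 from edgeR), and Ndrg1, with -0.38 (adjusted p = 0.125 from edgeR). Hif1a, which encodes the oxygen-regulated subunit of the hypoxia-inducible factor, had 64.6, 63.3 and 51.7 CPM in the CON mice and 156.0, 144.1 and 117.5 CPM in the T + E2 mice, a log2 fold change of 1.22 (SE 0.14, adjusted p = 0.000858 from edgeR). The hydroxylase gene Egln3 rose by 1.00, the glycolytic gene Pgk1 by 0.85 and the mitophagy gene Bnip3 by 0.50, with adjusted p-values of 0.007 to 0.028 from edgeR. Hif1a and Pgk1 were called in all 15 alternatives. Egln3 lost its call without CON mouse 3 or T + E2 mouse 2, and Bnip3 without any 1 of CON mouse 2, CON mouse 3, T + E2 mouse 1 and T + E2 mouse 2. Vegfa, with a fold of 1.07 and an interval of 0.862 to 1.32, did not pass the test.

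**Figure D5:**
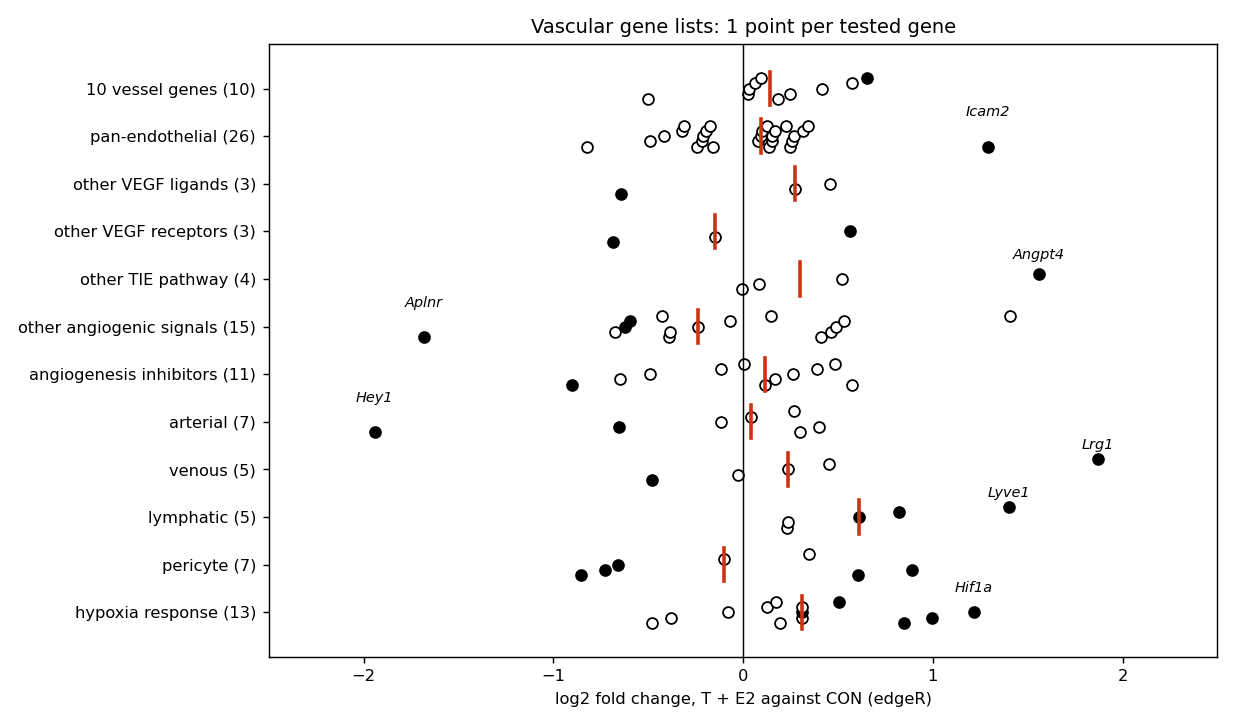
Log2 fold change (T + E2 against CON) of every tested gene in 12 vascular lists, with the number tested in parentheses. Filled points have an adjusted p under 0.05 in edgeR, red bars are medians, and called genes with an absolute log2 fold change over 1 are named. The medians of the 10 vessel genes and of the 26 pan-endothelial genes are 0.14 and 0.10. The named genes are Angpt4, Lrg1, Lyve1, Hif1a and the pan-endothelial Icam2 to the right, and Hey1 and Aplnr to the left.

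The other cells of the prostate were checked in the same libraries. Of 8 epithelial genes 2 were higher and 1 lower, and their sum was 3651 to 3971 CPM in the CON mice and 3864 to 3969 CPM in the T + E2 mice. Krt18, a luminal keratin and the most abundant of them, fell by 0.54 (adjusted p = 0.007 from edgeR). Epcam, an epithelial adhesion molecule, rose by 1.18 (adjusted p = 0.000175 from edgeR). Cdh1, the epithelial cadherin, rose by 0.34 (adjusted p = 0.046 from edgeR) and was called in 3 of 15 alternatives. Of 6 fibroblast genes 0 were higher and 0 lower, with 0 also at an unadjusted p under 0.05 in edgeR, and Dcn, the most abundant, had a log2 fold change of 0.33 (adjusted p = 0.237 from edgeR). Of 6 adipocyte genes 5 were tested and 0 were called in either direction, with 2 lower at an unadjusted p under 0.05 in edgeR.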

How the data were processed

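RNA from the prostates of 6 mice (3 CON, 3 T + E2) was made into paired-end libraries with the Illumina TruSeq RNA kit. The submitters' processing notes name TopHat, Bowtie2 and HTSeq. Their versions, the genome build, the annotation and the strand setting are not given in the sources used here. Coordinates match GRCm38, on which GENCODE M21 was used for gene lengths and overlaps. The authors deposited whole-number counts per gene, without normalization, and FPKM values that the authors derived from them by gene length and depth. Groups and replicate numbers came from the sample labels, and each mouse was 1 replicate.

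The count test was edgeR 4.0.16 in R 4.3.3 (filterByExpr with minimum count 10 and minimum total 15, TMM scaling, quasi-likelihood test, Benjamini-Hochberg adjustment over 15580 genes). Changed genes had an adjusted p under 0.05, and DEGs also an absolute log2 fold change over 1. Simulated data with 200 changed genes served to check the procedure. Alternatives were RLE, total-count and upper-quartile scaling, no low-count filter, genes kept at an FPKM of at least 1 in 3 mice, DESeq2 1.42.0, limma 3.58.1 on log2(FPKM + 0.1) and log2(FPKM + 1), a replicate block, and each mouse left out. Fold changes from limma are on the log2(FPKM + pseudocount) scale, which understates the change of low genes. Ratios within a mouse were compared by exact two-sided permutation tests in scipy 1.17.1.

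The 10 genes and all lists were chosen with earlier results of these data known, so no list count is independent evidence. Named genes were the 10 genes, up to 4 genes in each other list with the largest absolute log2 fold change among called genes whose groups did not overlap, and the most abundant gene of each list of other cells. Figf, Pgf, Flt4, Calcrl, Jag1, Sema3g, Ccl21a, Prox1, Reln, Notch3, Ddit4, Ndrg1, Cdh5, Sox7 and Gp9 fall outside this rule and were added after their values were seen. The same holds for Itga2b, Gja4, Gja5, Bmx and Gm49368. RefSeq promoter entries were used for Kdr, Flt1, Tek, Tie1, Vegfa and Vegfc. Entries for Pecam1, Vwf, Angpt1 and Angpt2 were not used here.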

Additional observations from a re-analysis of the deposited data

How the results depend on the processing

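Of the 10 genes, 0 were called higher by limma on log2(FPKM + 0.1), by limma on log2(FPKM + 1) and with the replicate block, and 0 to 1 with 1 mouse left out, against 1 in the edgeR test. The gene lost was Vwf. In both limma fits 1 gene, Vegfc, was called lower, and 1 pan-endothelial gene, Sox7, was called lower. Between 0 and 1 pan-endothelial genes were called higher with 1 mouse left out. The other scaling methods, filters and DESeq2 kept these counts. The cause of the differences was not tested.

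The replicate numbers do not pair the mice, since deviations of same-numbered mice correlated at -0.0665, 0.034 and 0.0245. With the replicate block, 1229 genes were higher and 945 lower over the whole table, against 1620 and 1441 without it.

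Directions turned for genes with values near 0. The log2 fold change of Kdr was -0.017 with total-count scaling, -0.0052 with upper-quartile scaling and -0.0039 and -0.0054 in limma with pseudocounts of 0.1 and 1, and that of Angpt1 was -0.012 with total-count scaling. With 1 mouse left out it ran from -0.072 to 0.17 for Kdr, from -0.022 to 0.22 for Tie1 and from -0.16 to 0.41 for Angpt1. Relative to the pan-endothelial sum, the log2 difference ran from -0.015 to 0.15 for Flt1, from -0.11 to 0.019 for Tie1, from -0.14 to 0.12 for Vegfa and from -0.15 to 0.21 for Angpt1, and that of Vegfa was 0.0013 with the most abundant gene left out of the sum. The number of genes whose ratio to the sum did not overlap between groups was 3 to 5 with 1 mouse left out. It could not fall below the 3 found with all mice, because groups that lie apart stay apart when a mouse is dropped. Angpt1 had no value under the FPKM filter.

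With 3 mice a group and a median 95% half-width of 0.35 on the log2 scale, smaller changes were often not detectable. Counts were lowest for Vegfc and Angpt1, at 25 to 70 per mouse.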
